A study of Rattus norvegicus with 6 samples.

Results

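Sox4, Sox11, Sox12, Sox5, Sox6, Sox8 and Sox9 are the genes of the SOX transcription factor family described here. They were taken by gene symbol from 29468 symbols, 7 in all. No measured value was used to pick them, but earlier results of these data were known when they were chosen. Sox2, Sox10 and Sox17 were not among them. Their RNA was measured by RNA-seq in 3 preparations of Schwann cell precursors (SCPs) and 3 preparations of repair Schwann cells (RSCs) from Lewis wild-type rats. The methods of the study say that the grafted cells came from transgenic Lewis rats with a red fluorescent protein. They do not state separately which rats gave the cells for RNA. SCPs came from sciatic nerve and brachial plexus of embryos at embryonic day 14 and received no treatment. RSCs came from the distal segments of transected sciatic nerves of rats aged 10 weeks, taken 1 week after the cut. Both were freshly dissociated with enzymes and passed over plastic to remove adhering fibroblasts and macrophages. Neither the labels nor the methods tie a preparation to single animals, so p-values measure the spread between preparations.

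SOX proteins bind DNA through a high-mobility-group (HMG) box and fall into subgroups by the sequence of that box. The SOXC genes Sox4, Sox11 and Sox12 are active in progenitors and immature neurons and encode transcriptional activators. The SOXD genes Sox5 and Sox6 encode proteins without an activation domain of their own, which pair through a coiled coil and work with or against other SOX proteins. The SOXE genes, Sox8, Sox9 and Sox10, act in the neural crest and in the glia that come from it.

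SCPs and RSCs differed in the levels of these genes once the unnamed transcripts joined to each gene were counted with the named ones. SCPs carried Sox11 and Sox12, which were listed at 0 and at a 4.71-fold lower mean in RSCs, and they had more Sox5. RSCs had more Sox8, Sox6 and Sox4, with mean levels 3.93, 2.79 and 1.77 times those of SCPs. These are FPKM (fragments per kilobase, divided by the mapped fragments of the library). They were counted over both the transcripts that the tables name and the unnamed transcripts that Cufflinks assembled at the same gene. Unnamed transcripts in a Cufflinks locus of their own beside a gene were not added. One such transcript, at 13 FPKM beside Sox12 in RSC 1, is not in the Sox12 value of that sample, 7.34 FPKM. On the named transcripts alone, the scale set out first, 6 of the 7 genes had enough signal to test. Of these, limma at an unadjusted p under 0.01 called 3 (Sox4, Sox8 and Sox9) on the RSC side and 0 on the SCP side. Of all 13003 genes tested it called 40.5%, 18.1% toward RSCs and 22.4% toward SCPs. At an unadjusted p under 0.05 the count higher in SCPs was also 0, and limma was the only tool run. With the unnamed transcripts added, 6 of 7 were called, 3 on the RSC side (Sox4, Sox6 and Sox8) and 3 on the SCP side (Sox5, Sox11 and Sox12), against 57.4% of the 14019 genes then tested, 23.2% toward RSCs and 34.2% toward SCPs. The 3 preparations of each group lay apart for all 7 genes on that scale, 4 of them toward RSCs, against 72.4% of all genes, 28.8% toward RSCs and 43.6% toward SCPs. In bulk samples fewer cells of a type and less RNA per cell cannot be told apart.

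**Figure D1:**
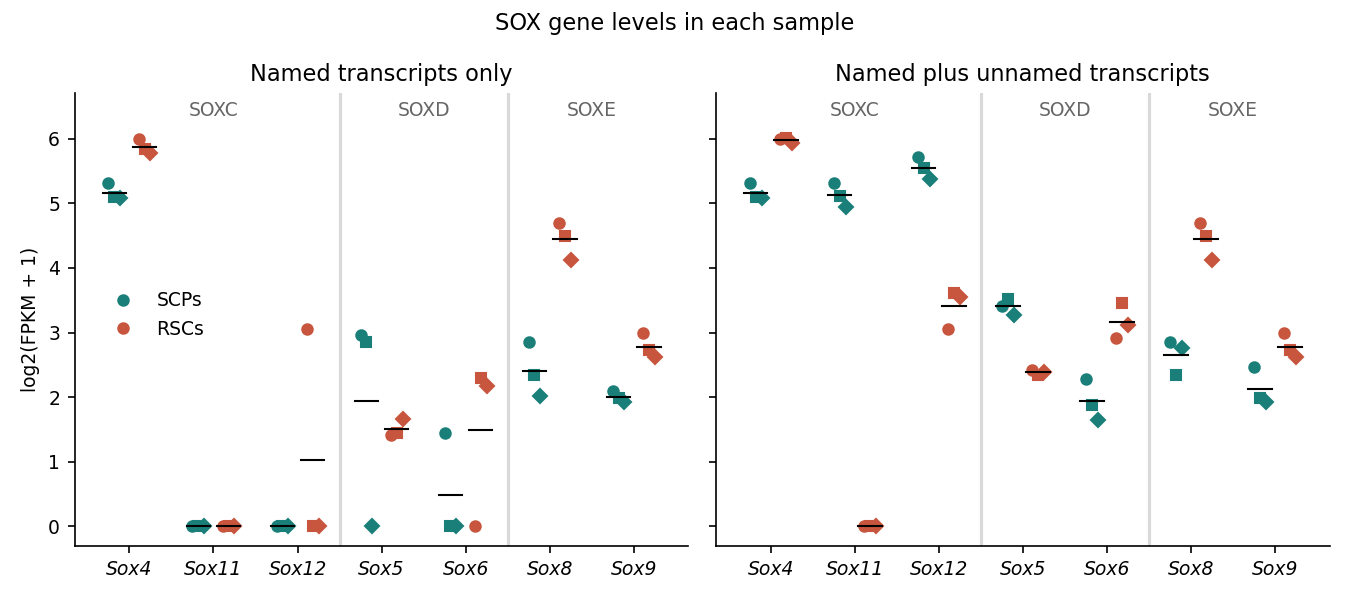
Level of each SOX gene in each preparation, as log2(FPKM + 1), on the named transcripts (left) and with the unnamed transcripts of the same gene added (right). Circles, squares and diamonds are preparations 1, 2 and 3 and bars are group means. With the unnamed transcripts added, Sox11 stood at 29.7 to 38.6 FPKM in SCPs and at 0 in RSCs, and the groups lay apart for all 7 genes.

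Relative depth, read from the steps between the low values of each table, was 0.89 to 1 of the deepest sample in SCPs and 0.77 to 0.85 in RSCs. All 3 samples of each group expressed Sox10, a Schwann cell lineage marker. It stood at 175 to 181 FPKM in SCPs and 143 to 149 FPKM in RSCs. The lineage marker Fabp7 was listed at 0 in each SCP sample and in RSCs 2 and 3, and at 0.511 FPKM in RSC 1. Of 10 such markers 9 were tested with unnamed transcripts included, 6 passed on the RSC side and 3 on the SCP side, and their summed FPKM was 777 to 903 in SCPs and 3126 to 3785 in RSCs. Markers of other cells also differed. Toward RSCs went leukocyte markers (8 of 8 tested, sums of 18.7 to 45.7 FPKM in SCPs and 2173 to 2626 FPKM in RSCs) and fibroblast and mesenchyme markers (6 of 9, with 2 toward SCPs, sums of 702 to 1067 and 6946 to 8036). Toward SCPs went erythroid markers (8 of 9, sums of 37487 to 140609 and 1869 to 2474), muscle precursor markers (7 of 8, with 1 toward RSCs, 84.4 to 266 and 29.9 to 31.1), neuron markers (4 of 6, 28.3 to 48.5 and 9.89 to 11.7), chondrocyte markers (2 of 3, with 1 toward RSCs, 67.8 to 115 and 12.8 to 16.6) and proliferation markers (8 of 8, 339 to 426 and 121 to 128). Of 8 endothelial markers 1 passed, toward RSCs (70.0 to 128 and 132 to 149). Among the markers listed at 0 in every RSC sample were Elavl4, Isl1, Ina, Myod1, Myf5, Pax7, Matn1, Hbe1 and Hbz, and Cd3e was at 0 in every SCP sample. The part of these other cells in the SOX values was not tested. The median log2 fold change of all genes tested was -0.17 on the named transcripts and -0.24 with the unnamed ones, and median-of-ratios scaling moved it to 0.02 and 0.0055. The share of called genes that were higher in RSCs was 44.6% and 40.4% as deposited and 56.1% and 53.9% after that scaling, under which no SOX gene changed direction.

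Of the SOXC genes, Sox4 (chromosome 17 from 37615022 to 37619728 of rn6, 1 named transcript of 4707 bases) has been tied to the timing of Schwann cell myelination. Its named transcript stood at 38.7, 33.1 and 33.0 FPKM in SCPs 1, 2 and 3 and at 62.6, 56.0 and 53.9 FPKM in RSCs 1, 2 and 3. The values of RSCs 2 and 3 carried Cufflinks' low-data mark, and the others did not. All 3 RSC values lay above all 3 SCP values, as for 24.9% of all genes on this scale, where 58.6% lay apart in either direction and 33.7% toward SCPs. The log2 fold change, RSC minus SCP on log2(FPKM + 1), was 0.70 (standard error, SE, 0.11, unadjusted p = 0.00063, Benjamini-Hochberg adjusted p = 0.0030, limma). With unnamed transcripts the RSC values were 62.6, 63.3 and 59.9 FPKM, the mean was 34.9 ± 3.28 in SCPs and 61.9 ± 1.75 in RSCs (SD, n = 3 each), and the log2 fold change was 0.81 (SE 0.09, adjusted p = 0.00032, limma). Sox4 was the SOXC gene with the highest level in RSCs on both scales.

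Sox11 (chromosome 6 from 46629967 to 46631988) is a SOXC activator of embryonic neurons and mesenchyme. Its single named transcript, 2022 bases long, was listed at 0 in all 6 samples, so the named transcripts gave no test. At the same place Cufflinks had assembled an unnamed transcript in each SCP sample, 8059, 7947 and 7888 bases long and each as long as its span on the genome, so without an intron, at 38.6, 33.6 and 29.7 FPKM. These transcripts covered the named one and ran 5889, 5895 and 5866 bases past its 3′ end, and their mean read coverage was 23.1, 21.7 and 16.7. In the SCP tables the named transcript carried Cufflinks' low-data mark, so its 0 there was not a measured level. In the RSC tables the named transcript was listed at 0 with a normal status, and no unnamed transcript stood over it. A value of 3 fragments on the named transcript would have read 0.332, 0.302 and 0.320 FPKM in RSCs 1, 2 and 3, for counting error only. With the unnamed transcripts the 3 SCP values (34.0 ± 4.46 FPKM) lay apart from the RSC values at 0, a difference of -5.12 on log2(FPKM + 1) (SE 0.14, adjusted p = 1.6e-06, limma), and no fold is given against a group at 0. The pseudocount sets the size of this difference, which was -8.41 with a pseudocount of 0.1. Of the genes tested on that scale, 0.157% had a lower log2 fold change.

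Sox12 (chromosome 3 from 147864374 to 147865393), the third SOXC gene, showed the same split between named and unnamed transcripts. Its named transcript, 1020 bases long, was listed at 0 in SCPs 1, 2 and 3 and in RSCs 2 and 3, and at 7.34 FPKM in RSC 1. Each of these 0 values carried the low-data mark, so none was a measured level. The resulting log2 fold change of 1.02 (SE 0.87, adjusted p = 0.38, limma) rested on RSC 1 alone, and without that sample the gene fell under the minimum level for the test. Unnamed transcripts of 3968, 4047 and 3968 bases covered the gene in SCPs, at 51.6, 45.8 and 40.3 FPKM. In RSCs 2 and 3 they were 2819 and 2808 bases long and stood at 11.2 and 10.7 FPKM. With them added, every SCP value lay above every RSC value, the lowest SCP value being 3.61 times the highest RSC value. The means were 45.9 ± 5.61 FPKM in SCPs and 9.75 ± 2.1 FPKM in RSCs, and the log2 fold change was -2.14 (SE 0.18, adjusted p = 8.4e-05, limma). The log2 fold change of Sox12 was therefore opposite in sign on the 2 scales, but on the named transcript only RSC 1 had a measured level.

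**Figure D2:**
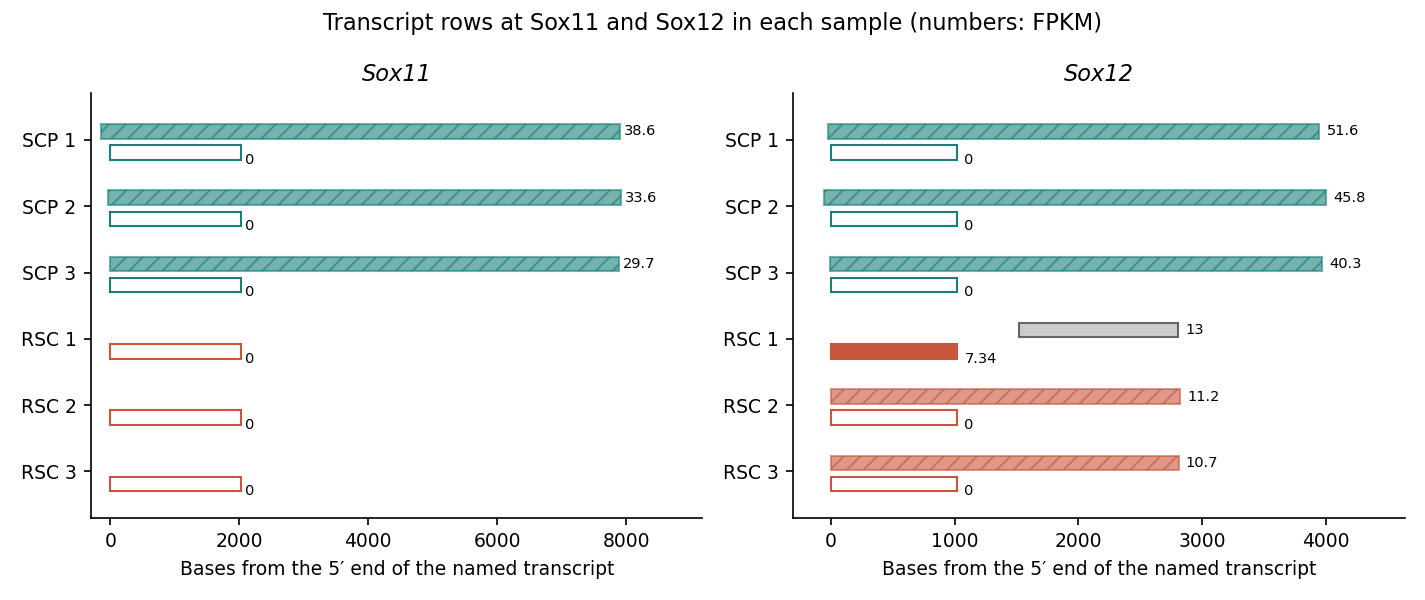
Transcripts listed at Sox11 and Sox12 in each sample, drawn to scale from the 5′ end of the named transcript, with the FPKM of each at its right. Plain boxes are the named transcript, open where it is listed at 0 and filled at 7.34 FPKM in RSC 1 for Sox12, and hatched boxes are unnamed transcripts joined to the gene. The grey box is an unnamed transcript of RSC 1 at 13 FPKM that lay 500 bases from Sox12 and was not joined.

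The RefSeq gene models of Sox11 and Sox12 in the GRCr8 assembly have the same lengths as the named transcripts, 2022 and 1020 bases. The sequence around their starts is shown. The unnamed transcripts ran past the named ones mostly at the 3′ end, which these windows do not cover. Each window holds 250 bases before and 50 bases from the start of the RefSeq gene, 5′ to 3′ on the minus strand, with the first 3 bases of the gene in capitals. They lie at chr6:49738745-49739044 for Sox11 and chr3:161320770-161321069 for Sox12.
Sox11: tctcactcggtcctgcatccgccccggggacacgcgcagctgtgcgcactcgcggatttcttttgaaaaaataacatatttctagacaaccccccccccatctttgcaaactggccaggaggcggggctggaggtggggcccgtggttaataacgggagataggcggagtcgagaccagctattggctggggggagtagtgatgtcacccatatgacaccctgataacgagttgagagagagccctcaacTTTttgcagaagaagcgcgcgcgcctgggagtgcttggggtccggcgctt
Sox12: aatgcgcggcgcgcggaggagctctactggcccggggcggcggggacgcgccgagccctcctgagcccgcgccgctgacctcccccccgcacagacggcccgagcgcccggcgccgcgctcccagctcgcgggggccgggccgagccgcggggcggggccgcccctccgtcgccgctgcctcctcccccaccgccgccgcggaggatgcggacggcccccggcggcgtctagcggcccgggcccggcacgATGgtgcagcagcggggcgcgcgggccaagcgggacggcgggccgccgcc
The Sox12 model starts on ATG, the letters of a start codon, as 10.5% of 27457 RefSeq windows of this length do, and the Sox11 model starts on TTT. Of the Sox12 window 84.3% is G or C, with 55 CpG, and of the Sox11 window 58%, with 20 CpG, where the median window has 52.3% and 7 CpG. Neither window holds the SOX motif letters ACAATG or ACAAAG on either strand, whose matches cannot overlap and of which at least 1 occurs in 28.6% of all windows. Of the 7 genes 3 matched the table of windows, and the window listed for Sox6 lies inside its gene and is not described.

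Within each sample the SOXC genes made up 84.2% to 84.8% of the FPKM of the 7 genes in SCPs and 62.0% to 67.9% in RSCs, with unnamed transcripts included. Sox12 had 39.1% to 40.7% of the SOXC sum in SCPs, Sox4 had 29.4% to 32.0% and Sox11 had 28.9% to 30.0%. In RSCs Sox4 alone had 84.8% to 89.5% and Sox12 the rest. The makeup was nearly equal in the 3 SCP samples, although their SOXC sums ran from 103 to 129 FPKM, and the RSC sums ran from 69.9 to 74.4 FPKM.

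**Figure D3:**
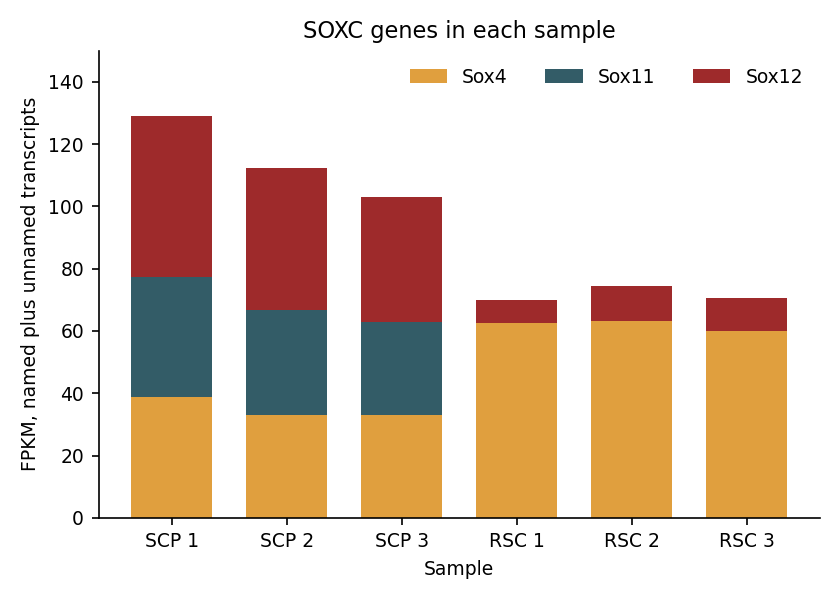
FPKM of Sox4, Sox11 and Sox12 in each sample, named plus unnamed transcripts, stacked. The 3 SCP samples hold all 3 genes, and in the 3 RSC samples Sox4 makes up 84.8% to 89.5% of the sum and Sox11 is at 0.

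With unnamed transcripts added, the SOXD genes differed in opposite directions. Sox5 (chromosome 4 from 178062267 to 178441669, 4 named transcripts of 2815 bases or more) had 6.76, 6.25 and 0 FPKM on its named transcripts in SCPs 1, 2 and 3 and 1.67, 1.74 and 2.15 FPKM in RSCs. The 0 of SCP 3 lay below all RSC values, so the groups overlapped and the log2 fold change was -0.43 (SE 0.82, adjusted p = 0.70, limma). Without SCP 3 it was -1.40 (unadjusted p = 0.0012), and without SCP 1 or SCP 2 it was 0.080 or 0.031. In SCP 3 all of the signal stood in unnamed transcripts. With those added, Sox5 stood at 9.68, 10.5 and 8.67 FPKM in SCPs and at 4.35, 4.06 and 4.25 FPKM in RSCs. No values of the groups overlapped, the SCP mean was 2.27 times the RSC mean, and the log2 fold change was -1.02 (SE 0.12, adjusted p = 0.00043, limma).

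Sox6 (chromosome 1 from 185673177 to 186185254, 8 named transcripts), the SOXD partner of Sox5, was listed on its named transcripts at 1.73, 0 and 0 FPKM in SCPs and at 0, 3.90 and 3.52 FPKM in RSCs. The groups overlapped, and its log2 fold change was 1.01 (SE 0.76, adjusted p = 0.32, limma). It was 1.75 without RSC 1, 0.61 without RSC 2 and 0.66 without RSC 3. With unnamed transcripts it stood at 3.86, 2.67 and 2.11 FPKM in SCPs and 6.56, 9.96 and 7.62 FPKM in RSCs. All RSC values were then above all SCP values, and the log2 fold change was 1.23 (SE 0.22, adjusted p = 0.0028, limma). The ratio of Sox5 to Sox6 in a sample was 2.51 to 4.10 in SCPs and 0.408 to 0.664 in RSCs, so Sox5 led in every SCP sample and Sox6 in every RSC sample.

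Of the SOXE genes, Sox8 (chromosome 10 from 14932348 to 14937336), a glial relative of Sox10, had the largest rise toward RSCs among the 7 genes by log2 fold change. Its named transcript stood at 6.21, 4.07 and 3.07 FPKM in SCPs and 25.0, 21.6 and 16.4 FPKM in RSCs. The groups lay far apart, and the log2 fold change was 2.04 (SE 0.27, adjusted p = 0.0017, limma), above that of 91.5% of the genes tested. Adding unnamed transcripts changed SCP 3, to 5.78 FPKM, and gave means of 5.35 ± 1.13 FPKM in SCPs and 21.0 ± 4.34 FPKM in RSCs, and the log2 fold change was 1.79 (SE 0.20, adjusted p = 0.00035, limma).

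Sox9 (chromosome 10 from 101288354 to 101294030), which acts in neural crest formation and directs cartilage development with Sox5 and Sox6, was at 3.28, 2.97 and 2.80 FPKM in SCPs and 6.94, 5.65 and 5.13 FPKM in RSCs on its named transcript. The groups did not overlap, and the log2 fold change of 0.77 (SE 0.18, unadjusted p = 0.0059, adjusted p = 0.016, limma) passed the threshold. Adding unnamed transcripts took SCP 1 to 4.51 FPKM, and the log2 fold change of 0.65 (SE 0.20, unadjusted p = 0.014, adjusted p = 0.023) did not pass. Leaving out any 1 of the 6 samples also took the named-transcript p past 0.01, to between 0.010 and 0.021, with log2 fold changes of 0.67 to 0.86. Sox8 was the higher SOXE gene of this pair in each sample, with a ratio to Sox9 of 1.37 to 2.06 in SCPs and 3.20 to 3.83 in RSCs.

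**Figure D4:**
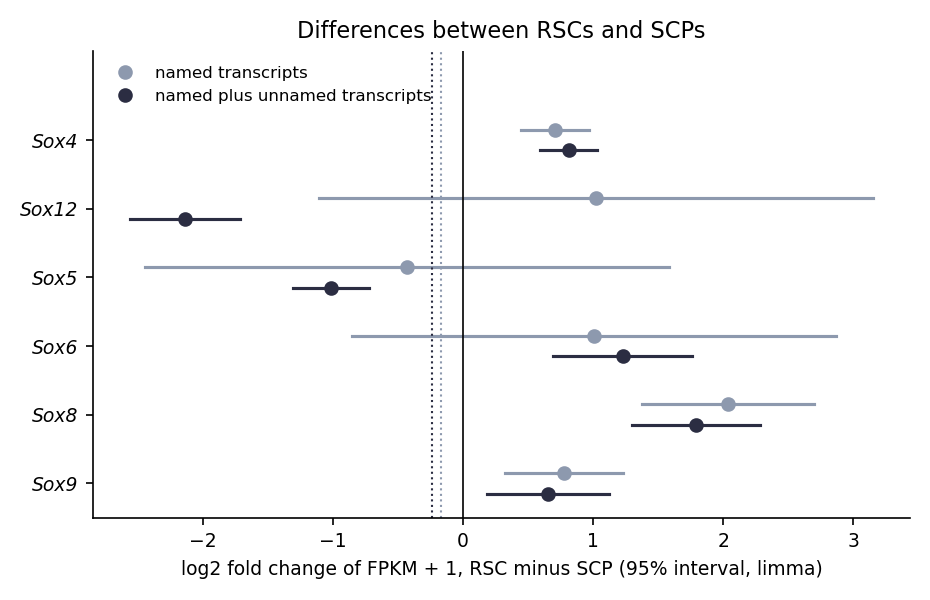
Log2 fold change of FPKM + 1, RSC minus SCP, with its 95% interval from limma, on the named transcripts (grey) and with unnamed transcripts added (dark). Dotted lines mark the median of all genes on each scale, -0.17 and -0.24. Sox11 is left out because its RSC values are all 0. The wide intervals of Sox12, Sox5 and Sox6 on the named transcripts span 0, and those with unnamed transcripts added do not.

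Over the alternatives run with unnamed transcripts, the adjusted p from limma lay between 7.4e-05 and 0.0022 for Sox4, 1.4e-06 and 0.00013 for Sox11, 6.2e-05 and 0.0012 for Sox12, 0.00033 and 0.0038 for Sox5, 0.0013 and 0.011 for Sox6, 0.00023 and 0.0025 for Sox8, and 0.0066 and 0.075 for Sox9. The 6 genes called with unnamed transcripts kept their call at an unadjusted p under 0.01 in each of them.

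The fragments behind these values, worked out from the same low-value steps, were 801 to 990 for Sox4 in SCPs and 1317 to 1505 in RSCs, and 1210 to 1692 for Sox11 in SCPs. Sox12 rested on 826 to 1112 in SCPs but on 33 in RSC 1 and 140 and 155 in RSCs 3 and 2. Sox6 and Sox9 rested on the fewest in SCPs, 59 to 93 and 61 to 97. Sox5 had 309 to 371 in SCPs and 104 to 136 in RSCs, and Sox8 76 to 109 and 247 to 363.

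By mean FPKM with unnamed transcripts, the order in SCPs was Sox12, Sox4, Sox11, Sox5, Sox8, Sox9 and Sox6. The ranges of Sox4 and Sox11 overlapped, as did those of Sox8 and Sox9 and of Sox9 and Sox6. In RSCs the order was Sox4, Sox8, Sox12, Sox6, Sox9, Sox5 and Sox11, where the ranges of Sox12 and Sox6 and of Sox6 and Sox9 overlapped. Sox12, first in SCPs, came after Sox4 and Sox8 in RSCs. It lay above Sox6 in each RSC sample (7.34, 11.2 and 10.7 FPKM against 6.56, 9.96 and 7.62 FPKM).

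Other genes were compared with these profiles by the root mean square difference of log2(FPKM + 1) over the 6 samples after centring each gene. Among the 10383 genes averaging 5 FPKM or more, with unnamed transcripts, the genes nearest to Sox11 were Rspo3, which encodes a secreted enhancer of Wnt signalling, at 0.068, and Asb4 at 0.072. Rspo3 stood at a mean of 32.4 FPKM in SCPs and 0 in RSCs. Nearest to Sox12 were Pcgf2, a Polycomb group gene, at 0.088, and Fbxl19 at 0.095, to Sox5 Pard3b at 0.038 and LOC100910882 at 0.042, and to Sox6 the kinase gene Mapk12 at 0.093 and the protease gene Pcsk6 at 0.10. Sox4 was nearest to LOC102554500 at 0.045 and Ppp1r11 at 0.051, Sox8 to Tpcn1 at 0.14 and Dnaja4 at 0.15, and Sox9 to Actr3 at 0.064 and Slc41a3 at 0.076. On the named transcripts, among 8604 genes, the nearest were Tyw1 at 0.036 and Arf6 at 0.055 for Sox4, H6pd and LOC100911725 at 0.20 for Sox8, Per1 at 0.050 and Tyw1 at 0.076 for Sox9, Limch1 at 0.30 and Rpl5 at 0.40 for Sox5, Tmem87b at 0.35 and Adrbk1 at 0.48 for Sox6, and Mcl1 at 0.57 and Rnpepl1 at 0.69 for Sox12.

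Genes that SOX proteins are known to bind or activate were counted by list. For each list below, the shares of all genes tested that passed were 22.4% toward SCPs and 18.1% toward RSCs on the named transcripts. With unnamed transcripts they were 34.2% and 23.2%. The medians of all genes were -0.17 and -0.24 on the 2 scales. Of 7 genes linked to SOXC factors, 6 were tested on the named transcripts, and 4 passed on the SCP side and 0 on the RSC side, with a median log2 fold change of -1.86 (5 and 0 of 6 with unnamed transcripts, median -1.19). Tead2, a partner of the Hippo pathway that SOXC proteins switch on, stood at 221, 215 and 144 FPKM in SCPs and 5.31, 7.77 and 8.79 FPKM in RSCs, a log2 fold change of -4.55 (adjusted p = 6.3e-05, limma). Map2, which encodes a neuronal microtubule protein, had a log2 fold change of -2.56 (adjusted p = 0.0034, limma). Its named transcripts stood at 0, 0 and 1.26 FPKM in RSCs 1, 2 and 3. With unnamed transcripts added these were 8.07, 5.59 and 6.14 FPKM, and the log2 fold change was -1.12 (adjusted p = 0.00062, limma). Tead2 lay on the side that Sox11 and Sox12 took with unnamed transcripts added, and on the other side from Sox4. A link between Tead2 and these genes was not tested.

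Of 14 glial genes linked to SOXE factors, 12 were tested, and 8 passed on the RSC side and 1 on the SCP side, with a median of 1.87 (10 and 1 of 13 with unnamed transcripts, median 1.89). S100b, a calcium-binding glial protein, had a log2 fold change of 6.37 (adjusted p = 0.00037, limma) and Mbp, a myelin protein, 5.24 (adjusted p = 0.00020). Mia was the gene higher in SCPs, at -2.08 (adjusted p = 0.0025).

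Of 16 cartilage genes bound by the trio of Sox9, Sox5 and Sox6, 8 were tested, 1 passed on the RSC side and 2 on the SCP side, with a median of -0.17 equal at 2 decimals to that of all genes (3 and 3 of 10 with unnamed transcripts, median -0.11). Col2a1, the main cartilage collagen, stood at 58.6, 85.9 and 103 FPKM in SCPs and at 0.423, 0.570 and 0.139 FPKM in RSCs, a log2 fold change of -5.90 (adjusted p = 3.8e-05, limma). Its direction was that of Sox5 with unnamed transcripts added and opposite to that of Sox6 and Sox9. A link between Col2a1 and the trio was not tested. Col9a2 had a log2 fold change of -2.09 (adjusted p = 0.010) and Col11a1 of 0.75 (adjusted p = 0.0096). The chondrocyte marker sums given above, higher in SCPs, hold Col2a1 as well.

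Of 21 other HMG-box genes 19 were tested, 1 passed on the RSC side and 11 on the SCP side, with a median of -0.95 (0 and 16 of 21 with unnamed transcripts, median -0.88). Tcf7l1, a Wnt pathway repressor, had a log2 fold change of -3.18 (adjusted p = 7.0e-05, limma) and Hmgb2, a chromatin protein of dividing cells, -2.68 (adjusted p = 0.00014). Tcf7, a Wnt pathway factor, was the gene higher in RSCs, at 0.82 (adjusted p = 0.019), and with unnamed transcripts added it did not pass (0.55, unadjusted p = 0.036).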

How the data were processed

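RNA from 3 preparations of SCPs and 3 of RSCs was sequenced by the authors from stranded mRNA libraries, in paired reads of 100 bases. Mapping was to rn6, and the submitters' processing notes name TopHat2 2.1.0, Cufflinks 2.2.1 and FastQC 0.11.2. The authors deposited 1 Cufflinks table per sample, with the FPKM and the read coverage (signal) of each transcript and its length in bases. The tables hold no counts. Transcripts without a gene name, 8815 to 9119 in RSCs and 11355 to 12417 in SCPs, were assembled in each sample separately.

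FPKM of named transcripts were summed by symbol, and genes averaging 1 FPKM or more were compared by limma 3.58.1 (R 4.3.3). The model used log2(FPKM + 1) and a variance trend, without a block, and differences are RSC minus SCP. The call was an unadjusted p under 0.01, the p threshold of the study, whose fold change criterion was not applied, and adjustment was by Benjamini and Hochberg across all genes tested. The pseudocount understates changes of low genes. On a second scale, unnamed transcripts were added to the named gene that they overlapped most among those sharing their Cufflinks locus. The tables give no strand, so strand was not used, and unnamed transcripts in a locus with no named gene were not added. A value of 0 can be a failed estimate. The low-data mark also stood on some values above 0 of named transcripts of Sox4, Sox5 and Sox6. The script was tested on simulated data. Fragments were worked out from steps between the low FPKM times bases of transcripts over 2000 bases, of which 88.3% to 93.5% lay within 10% of a whole number.

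The genes and lists were chosen with earlier results of these data known, from general knowledge of the family. Named are the 7 genes, the 2 genes of each list other than the marker lists that changed most in either direction among those with p under 0.01, marker genes and, per SOX gene, the 2 nearest profiles. Sox13, Sox14 and Sox15 were named after their values were seen. Not all genes covered by the rule are reported here. The 18 alternatives covered the pseudocount, filter, scaling, variance trend, replicate block, threshold, transcript choice, zeros and each sample left out. Promoter windows are from RefSeq, GRCr8.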

Additional observations from a re-analysis of the deposited data

How the results depend on the processing

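On the named transcripts, Sox4 and Sox8 kept their direction and their side of the threshold under all 18 alternatives. Sox9 kept its direction but not its call in 10 of the alternatives that gave a value: without a filter (0.77), with the replicate block (0.77), at an adjusted threshold (0.77), with unnamed transcripts added (0.65) and without each sample (0.67 to 0.86). Sox5 turned positive with the highest transcript only (0.14), a pseudocount of 0.1 (0.25), without SCP 1 (0.080) and without SCP 2 (0.031), and passed the threshold at -1.40 without SCP 3 or with its 0 left out and at -1.02 with unnamed transcripts added. Its values without 1 sample ran from -1.40 to 0.080. Sox6 passed with unnamed transcripts added (1.23), and without passing it was 2.1 with a pseudocount of 0.1 and 0.61 to 1.75 without 1 sample. Sox12 reversed to -2.14 with unnamed transcripts added. Values of 0 were left out only in a group where another sample reached 5 FPKM. For Sox12 that dropped RSCs 2 and 3 and kept the SCP values at 0, so its 3.06 rested on RSC 1 alone. The count of SOX genes higher in SCPs, 0, became 1 without SCP 3 (range 0 to 1 without 1 sample), 1 with zeros left out and 3 with unnamed transcripts added. The count higher in RSCs, 3, was 2 without each sample. A mean of at least 5 FPKM left Sox5, Sox6, Sox9 and Sox12 untested, and Sox12 had no value without RSC 1.

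With unnamed transcripts added, a scale on which the alternatives were repeated after seeing the data, the 6 called genes kept direction and call under all 16 of them, with Sox11 at -8.41 with a pseudocount of 0.1. Sox9 passed after median-of-ratios scaling (0.87), with the replicate block (0.65) and without SCP 1 (0.82, where values without 1 sample ran from 0.55 to 0.82). The cause of these moves was not tested. Same-numbered samples correlated in their deviations by 0.044, -0.0049 and 0.026 on the named transcripts. With unnamed ones added the correlations were 0.063, 0.034 and 0.050. All lay under 0.1. The main model had no block, as the study had compared the groups without pairing. Each sample correlated best with its own number on the second scale but not on the first. A low correlation cannot show that same-numbered samples were prepared apart, so whether they shared a batch was not resolved. The block changed no call but that of Sox9. Precision rests on 3 preparations a group and, for Sox6, Sox8, Sox9 and Sox12, on under 100 fragments in some samples.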

Other observations

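Unnamed transcripts in a Cufflinks locus of their own lay within 500 bases of several SOX genes, counting the gap between the nearest ends, and were not added to any gene. Beside Sox6 they stood at 6.39, 10.5 and 7.55 FPKM in RSCs 1, 2 and 3, with gaps of 475, 488 and 88 bases, and at 5.43 FPKM in SCP 1, with a gap of 392 bases. None was listed there in SCPs 2 and 3. Beside Sox12 there was 1, in RSC 1, 1286 bases long at 13 FPKM, in the stretch that the longer unnamed transcripts of RSCs 2 and 3 covered, and without RSC 1 the log2 fold change of Sox12 with unnamed transcripts was -1.96. Beside Sox4 there was 1 in RSC 1, at 6.64 FPKM with a gap of 316 bases, and beside Sox8 there was 1 in SCP 3, at 6.69 FPKM with a gap of 76 bases.

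Of 12 other SOX family genes, 10 were in the tables and 6 were tested. On the named transcripts 1 was higher in RSCs, Sox2, and 1 higher in SCPs, Sox10, and with unnamed transcripts added Sox17, an endothelial factor, was also higher in RSCs. Sox13, the SOXD relative of Sox5 and Sox6, stood at 21.0, 22.5 and 18.9 FPKM in SCPs and 17.2, 17.3 and 13.1 FPKM in RSCs with unnamed transcripts, and did not pass (log2 fold change -0.38, unadjusted p = 0.030, adjusted p = 0.045, limma). Sox14 and Sox15 were listed at 0 in all 6 samples.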
